A study of Drosophila melanogaster with 12 samples.

Results

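The comparison described here is the genotype difference in the maturation change. It is the change of each RNA between immature and mature oocytes in wisp females, minus the same change in wild type females, on the log2(value + 1) scale. A negative value means that the wisp change was the lower of both. It was computed for 5421 genes from 8 of the 12 libraries of a Drosophila melanogaster series, as a difference of group means and again from the replicate 1 and the replicate 2 libraries alone. The wisp groups carried wispKG5287, described in the labels as a null allele, and the wild type (WT) groups were w1118, with stocks from the Bloomington center. Mature oocytes were of oogenesis stage 14 and immature oocytes of stages 9 to 10, and each genotype and stage had 2 libraries labelled as biological replicates. Hand dissection in Grace's medium, from females aged 3 or 4 days, gave the oocytes of all 8. Total RNA of the same amount per sample received the same amount of ERCC spike-in RNA, and ribosomal RNA was then depleted. The other 4 libraries were of unfertilized activated eggs aged 0 to 1 h, 2 from each genotype, from females mated to sterile sons of tud1 mothers. They enter the estimate of the spread, and they give values that the oocyte contrast does not use.

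Wispy is a cytoplasmic poly(A) polymerase of the GLD-2 family. In the Drosophila female germline it lengthens the poly(A) tails of maternal mRNAs late in oogenesis and at egg activation, when transcription is silent and protein synthesis depends on stored RNA. A longer tail is generally linked to translation and stability of an mRNA, and deadenylation by the CCR4-NOT complex to its repression and decay.

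The values are the authors' normalised read counts, and their sums ranged from 11081267 to 13798129 in the 8 oocyte libraries. Sequencing depth is unknown, so no counting interval can be given. Each record in the table reached 100 in every library (the lowest value was 100.07), so a gene under 100 in any library is not analysed here. The same-genotype mature libraries were close to each other, with 7 wisp and 9 WT genes at least 2-fold apart. The immature libraries were not, with 931 wisp genes (17.2%) and 1117 WT genes (20.6%) at least 2-fold apart. The egg libraries lay between, with 11.4% of genes in wisp and 8.71% in WT at least 2-fold apart. Records with noncoding accessions made up 25.8% of the summed value in WT immature replicate 1, against 13.0% to 18.5% in the other 7. The 16 germline and nurse cell markers looked for were all present. Their summed values were 65594 to 83959 in mature and 54434 to 74517 in immature libraries. None was called in the difference, where 1.03% of all genes were called lower and 0.0% higher. Of the markers looked for, 0 of 16 for follicle cells, 0 of 8 for muscle sheath, 0 of 6 for fat body and 0 of 7 for haemocytes are in the table. Their absence cannot show that such cells were lacking, since a value under 100 in any library keeps a gene out of the table. A wider list of muscle, fat body and haemocyte genes had 2 members there, Argk and Tm1. The arginine kinase gene Argk had 2355 and 2217 in wisp mature and 5521 and 5711 in wisp immature oocytes, against 878 and 878 in WT mature and 1617 and 2104 in WT immature oocytes. At each stage both wisp libraries lay above both WT libraries. Its wisp minus WT difference was 1.38 in mature (limma adjusted p = 0.0155) and 1.61 in immature oocytes (limma adjusted p = 0.059), and its difference in the maturation change was -0.23 (limma adjusted p = 0.999). The tropomyosin gene Tm1 had a difference in the maturation change of 0.36 (limma adjusted p = 0.999). The part of such cells in the results was not tested.

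The targeted gene was low in every wisp library. The wisp RNA (chromosome X, 11893943 to 11899920 in dm6) had values of 249 and 259 in wisp mature oocytes and 718 and 249 in wisp immature oocytes. It had 7811 and 9722 in WT mature oocytes and 10195 and 3623 in WT immature oocytes. At each stage both wisp libraries lay below both WT libraries, with no overlap. With no replicate block its own maturation change was not called different, with a difference of -1.25 (SE 0.95, limma adjusted p = 0.857). From the replicate 1 and the replicate 2 libraries alone it was -1.14 and -1.37. With a block within each stage it was called lower, as given under the dependence on processing.

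In the difference itself the genes called with no replicate block all lay on the lower side. A block within each stage also gave genes called higher, given under the dependence on processing. With limma, no replicate block and a Benjamini-Hochberg adjusted p under 0.05, 56 of 5421 genes (1.03%) were called lower and 0 (0.0%) higher. At an unadjusted p under 0.05 in the same fit the counts were 638 lower and 8 higher. The called genes included RNA processing and nucleolar genes (Fib, NHP2, wcd, SmB), mitochondrial ribosomal proteins (mRpL20, mRpL47, mRpL40), the RNA polymerase I subunit RpI1, the translation factor eIF-2beta and the deadenylase complex gene Rga. Their difference ranged from -3.87 to -0.88 with a median of -1.46, where all genes had a median of -0.04. In bulk samples such as these, fewer cells of a type and less RNA per cell cannot be told apart. The p-values rest on 2 libraries per group, with a spread pooled over 6 groups of which the immature ones varied most, so the error of the immature groups is understated.

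**Figure D1:**
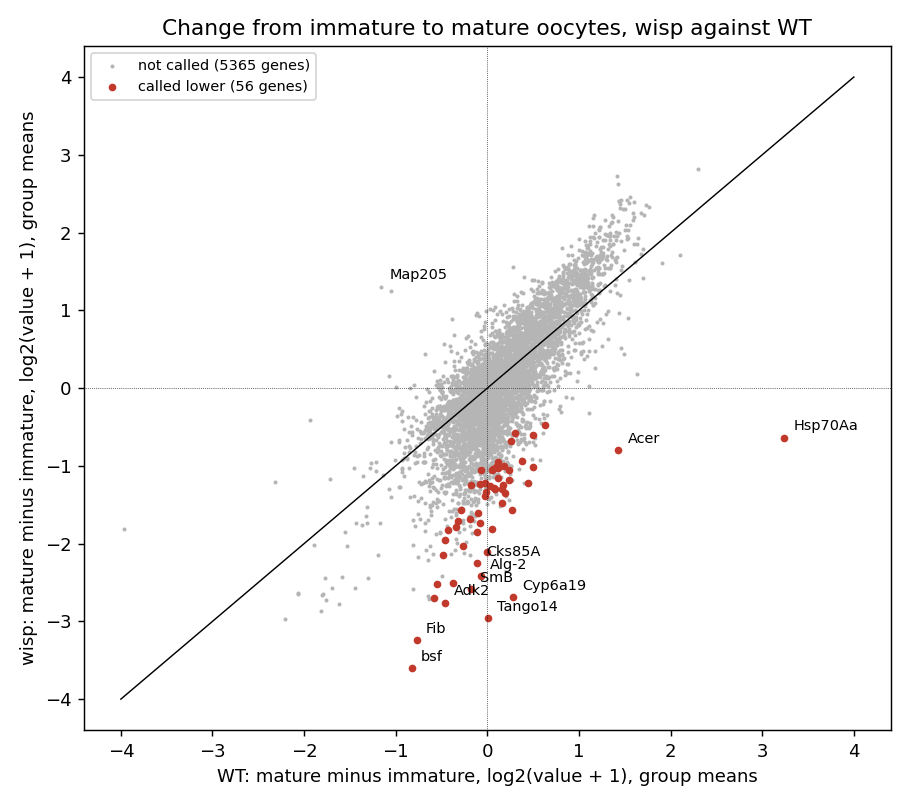
Change between immature and mature oocytes on the log2(value + 1) scale, in wisp (vertical axis) and in WT (horizontal axis), 1 point per gene, with the diagonal of equal change. The 56 genes called lower (red) lie under the diagonal, most at a WT change near 0 and a wisp change below -1.

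The 56 genes had 1 common pattern with few exceptions. The median of their group means was 179 in wisp mature and 570 in wisp immature oocytes, and 580 in WT mature and 558 in WT immature oocytes. Both wisp mature libraries lay below all 6 other oocyte libraries for 54 of the 56, which holds for 21.2% of all genes. The exceptions were Hsp70Aa and Acer. The wisp maturation change had a median of -1.35, and 54 of the 56 were called lower there (11.4% of all genes were) and 0 higher (1.68% of all genes were). The WT maturation change had a median of 0.02, and 49 of the 56 lay between -0.5 and 0.5. In WT, 0 genes (0.0%) were called in either direction by limma, and 209 lower and 313 higher genes had an unadjusted p under 0.05. These values are parts of the difference that selected the genes and are given as a description.

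The genotypes were compared at each stage for the same genes. These comparisons are also parts of the difference that selected the genes and are given as a description. In mature oocytes the wisp minus WT difference of the 56 had a median of -1.41, and 54 were called lower (9.37% of all genes were) and 0 higher (0.683%). In immature oocytes it had a median of 0.02, and 1 of the 56, Cyp6a19, was called lower (0.0738% of all genes were) and 0 higher (0.0369%). Of the 56, 49 lay between -0.5 and 0.5 in immature oocytes. Those past 0.5 in size were Hsp70Aa (3.37), Acer (0.78), l(1)G0004 (0.68), CG4842 (0.61), CG10336 (-0.53), CG17322 (-1.07) and Cyp6a19 (-1.97), a set singled out after its values were seen. Only Hsp70Aa among the 56 had immature libraries of a genotype 2-fold or more apart, against 24.1% of all genes. The test weighs each gene by its spread between replicates, so genes with such libraries are less likely to be called. This low share therefore follows in part from the call.

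The heat shock gene Hsp70Aa, which encodes an inducible chaperone, had the lowest difference and a pattern of its own. Its values were 2957 and 3684 in wisp mature and 6477 and 4062 in wisp immature oocytes, against 3832 and 5699 in WT mature and 857 and 285 in WT immature oocytes. The WT immature libraries lay below all 6 others, and both wisp mature libraries lay a little below both WT mature libraries. The difference was -3.87 (SE 0.69, limma adjusted p = 0.0455), made of a wisp change of -0.64 and a WT change of 3.24, neither of which passed the test by itself. Hsp70 genes have near-identical copies among which reads can be split, so the value of this copy is uncertain.

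The angiotensin-converting-enzyme-related gene Acer also stood apart. It had 584 and 535 in wisp mature and 1047 and 908 in wisp immature oocytes, against 1453 and 1614 in WT mature and 536 and 601 in WT immature oocytes. The mature libraries were the lower of the stages in wisp and the higher in WT, without overlap in either genotype. The difference was -2.23 (SE 0.26, limma adjusted p = 0.0151), with a wisp change of -0.80 (adjusted p = 0.0258) and a WT change of 1.43 (adjusted p = 0.217). Acer and CG3437 were the only genes with a wisp change of -0.5 or lower and a WT change of 0.5 or higher in both replicate numbers, and 0 genes had the opposite pattern. The difference of CG3437, -1.50, had an adjusted p of 0.0575.

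After Hsp70Aa, the lowest differences were in genes of varied function. Cyp6a19, a cytochrome P450 gene on chromosome arm 2R, had 224 and 249 in wisp mature and 1590 and 1462 in wisp immature oocytes, against 7040 and 7415 in WT mature and 6157 and 5774 in WT immature oocytes. Both wisp stages lay below both WT stages, and wisp mature oocytes were the lowest. The difference was -2.97 (SE 0.23, limma adjusted p = 0.00416), the lowest adjusted p among the 56. Tango14 (chromosome arm 2L, 1158661 to 1160220) had 129 and 123 in wisp mature and 872 and 1103 in wisp immature oocytes, against 1207 and 1139 in WT mature and 976 and 1400 in WT immature oocytes. Its wisp mature libraries stood apart from the 6 others, which overlapped. The difference was -2.96 (SE 0.30, limma adjusted p = 0.0151). The gene bsf (2L, 18449517 to 18454587) encodes an RNA-binding pentatricopeptide repeat protein first described for binding bicoid mRNA. It had 358 and 335 in wisp mature and 3619 and 4923 in wisp immature oocytes, against 3083 and 2879 in WT mature and 4593 and 6047 in WT immature oocytes. Mature values were the lower in both genotypes, and those of wisp lay far under all others, for a difference of -2.78 (SE 0.44, limma adjusted p = 0.0323).

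The genes Alg-2, Adk2 and Cks85A were also low in wisp mature oocytes. Alg-2, a calcium-binding protein of the penta-EF-hand family (chromosome arm 3R, 3623143 to 3627690), had 146 and 144 in wisp mature and 791 and 770 in wisp immature oocytes. In WT it had 706 and 726 in mature and 752 and 750 in immature oocytes. The 6 libraries other than wisp mature lay close together, and the difference was -2.35 (SE 0.27, limma adjusted p = 0.0151). Adk2, an adenylate kinase, had 365 and 422 in wisp mature and 2582 and 2740 in wisp immature oocytes, against 1786 and 1654 in WT mature and 2053 and 2723 in WT immature oocytes. Its difference was -2.30 (SE 0.36, limma adjusted p = 0.0323). Cks85A encodes a small subunit that binds cyclin-dependent kinases (3R, 8712906 to 8718456). It had 111 and 153 in wisp mature and 637 and 608 in wisp immature oocytes, against 666 and 617 in WT mature and 571 and 842 in WT immature oocytes. Its difference was -2.14 (SE 0.35, limma adjusted p = 0.0346). For Adk2 and Cks85A, as for Alg-2, the wisp mature libraries alone stood apart from the rest.

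**Figure D2:**
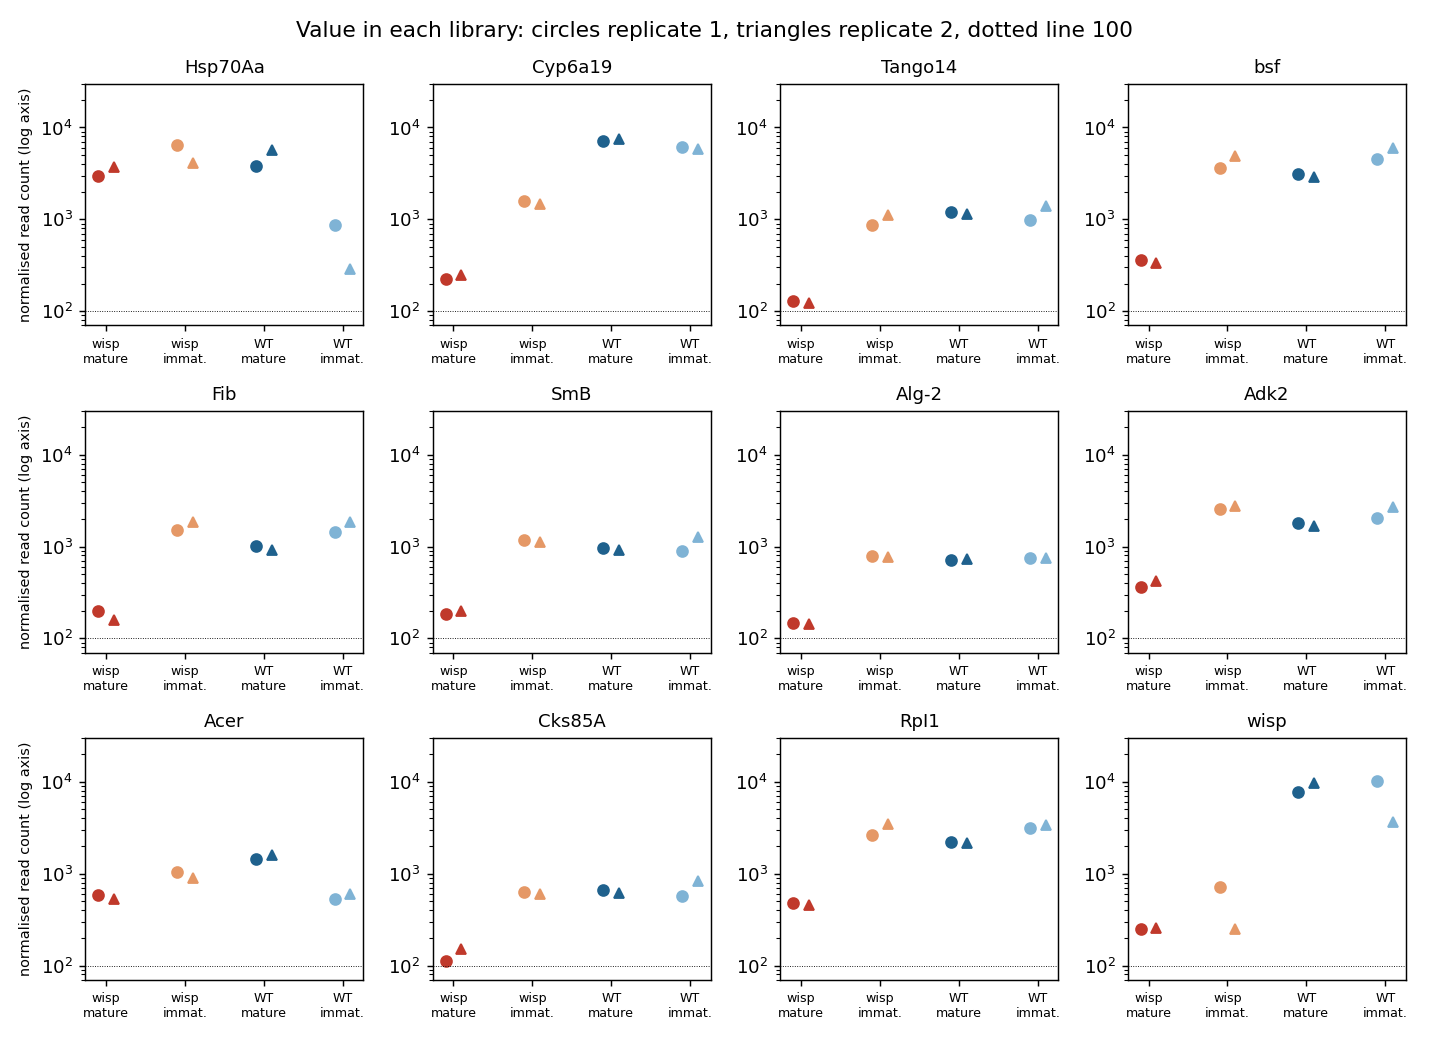
Authors' normalised read counts (log axis) of 12 genes in the 8 oocyte libraries, by group, with replicate 1 as circles, replicate 2 as triangles and a dotted line at 100. In 9 panels both wisp mature libraries lie under the other 6, and the exceptions are Hsp70Aa, Acer and wisp.

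The gene lists were chosen with earlier results of these data known, so their shares and medians are given as a description. Of 27 genes listed under nucleolar processing and small nucleolar RNA particles, 3 were called lower (11.1%, against 1.03% of all genes) and 0 higher. These particles methylate and pseudouridylate ribosomal RNA and take part in its cleavage. The median difference was -0.75, and both same-numbered values were negative for 22 of the 27 (81.5%, against 39.7% of all genes). Fibrillarin (Fib), the methyltransferase of box C/D particles, had 198 and 157 in wisp mature and 1522 and 1846 in wisp immature oocytes, against 1006 and 915 in WT mature and 1442 and 1853 in WT immature oocytes. The wisp mature values did not overlap with any other group, and the difference was -2.47 (SE 0.40, limma adjusted p = 0.0333). NHP2, a core protein of box H/ACA particles, had 152 and 167 in wisp mature and 1105 and 752 in wisp immature oocytes, against 656 and 581 in WT mature and 930 and 691 in WT immature oocytes. Its difference was -2.13 (SE 0.31, limma adjusted p = 0.0274). The third, wcd (wicked), a nucleolar protein of U3 particles, had 178 and 177 in wisp mature and 691 and 768 in wisp immature oocytes, against 603 and 615 in WT mature and 656 and 820 in WT immature oocytes, for a difference of -1.76 (SE 0.24, limma adjusted p = 0.0274). For NHP2 and wcd, too, the wisp mature libraries were lower than all others. The highest member of the list was bel, a DEAD-box RNA helicase with roles in translation, at 0.48 (limma adjusted p = 0.999). Its sign was not settled, with -0.23 without WT immature replicate 1 and 1.19 without WT immature replicate 2.

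Of 18 RNA polymerase subunits, 1 was called lower (5.56%, against 1.03% of all genes) and 0 higher. Their median was -0.79, and both same-numbered values were negative for 15 (83.3%, against 39.7% of all genes). RpI1, the largest subunit of RNA polymerase I, which transcribes ribosomal RNA, had 484 and 452 in wisp mature and 2655 and 3459 in wisp immature oocytes. In WT it had 2228 and 2162 in mature and 3175 and 3380 in immature oocytes. The wisp mature values lay well below the others, and the difference was -2.12 (SE 0.30, limma adjusted p = 0.0274). RpII15, a small subunit of RNA polymerase II, was the highest member whose same-numbered values shared a sign, at 0.03, and ran from -0.06 to 0.11 with single libraries left out. SmB, a core protein of the spliceosomal snRNPs (2L, 10425483 to 10426627), had 183 and 199 in wisp mature and 1179 and 1116 in wisp immature oocytes, against 954 and 918 in WT mature and 888 and 1269 in WT immature oocytes. Its wisp mature libraries were the lowest, and the difference was -2.40 (SE 0.31, limma adjusted p = 0.0238). Splicing genes were not counted as a list. Others among the 56, picked out after their values were seen, were Prp38 (-1.35), the lariat debranching enzyme gene ldbr (-1.15), the U2 snRNP gene U2A (-1.10) and CG10754, named Sf3a2 in RefSeq (-1.06).

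The protein synthesis lists were not alike in their medians. Of 67 mitochondrial ribosomal proteins 3 were called lower (4.48%, against 1.03% of all genes) and 0 higher, with a median of -0.59. Both same-numbered values were negative for 53 (79.1%, against 39.7% of all genes). mRpL20 had 109 and 117 in wisp mature and 395 and 301 in wisp immature oocytes, against 302 and 286 in WT mature and 282 and 352 in WT immature oocytes, for a difference of -1.50 (SE 0.27, limma adjusted p = 0.0446). Its wisp mature values were near the minimum of the table. mRpL47 (-1.50, limma adjusted p = 0.0429) and mRpL40 (-0.98, limma adjusted p = 0.0492) had the same pattern. Of 84 cytoplasmic ribosomal proteins 0 were called, where 1.03% of all genes were called lower and 0.0% higher. Their difference had a median of 0.09 and a range of -0.43 to 0.49. Their maturation change had a median of -0.46 in wisp and -0.55 in WT. Among 41 translation initiation and elongation factors 1 was called lower (2.44%, against 1.03% of all genes) and 0 higher, and the median was 0.04. That gene, eIF-2beta, a subunit of the factor that brings initiator tRNA to the ribosome, had 1195 and 1170 in wisp mature and 4424 and 4000 in wisp immature oocytes, against 3237 and 3027 in WT mature and 4256 and 4156 in WT immature oocytes. Both mature pairs were the lower of their genotype, and the wisp pair was lower still, with a difference of -1.40 (SE 0.25, limma adjusted p = 0.0429). eIF2B-epsilon, the catalytic subunit of its nucleotide exchange factor, had the lowest value of the list at -1.75, which missed the threshold (limma adjusted p = 0.0763).

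Of 40 genes of poly(A) tail control and deadenylation, the machinery closest to Wispy in function, 1 was called lower (2.5%, against 1.03% of all genes) and 0 higher, and the median was 0.19. Rga (3R, 5607275 to 5613112), the Drosophila NOT2 subunit of the CCR4-NOT deadenylase complex, had 822 and 776 in wisp mature and 1585 and 1751 in wisp immature oocytes. In WT it had 2288 and 2456 in mature and 2107 and 1910 in immature oocytes. The wisp mature pair was the lowest and the WT mature pair the highest, and the difference was -1.30 (SE 0.24, limma adjusted p = 0.0491). The cleavage stimulation factor gene CstF-50 had the lowest value of the list, -1.45, and the decapping enzyme gene Dcp2 the highest, 0.96. Neither passed the test (limma adjusted p = 0.112 for CstF-50 and 0.999 for Dcp2). The sign of Dcp2 was not settled, and its value was -0.49 without WT immature replicate 1.

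Lists of oocyte function had 0 called members in either direction in the limma test. Over all genes 1.03% were called lower and 0.0% higher, so 0 calls do not set apart any list of this paragraph. The median difference was 0.15 for 50 genes of the PNG kinase pathway and the meiotic cell cycle, 0.05 for 20 genes of egg activation and calcium, -0.01 for 38 maternal axis patterning genes, and -0.06 for 28 piRNA pathway genes. The mRNA of oskar (osk), which directs germ plasm assembly, had 20693 and 24144 in wisp mature and 22596 and 24274 in wisp immature oocytes, against 16096 and 17045 in WT mature and 17326 and 17318 in WT immature oocytes. The wisp values were the higher at each stage and the stages differed little, for a difference of -0.00 (SE 0.25, limma adjusted p = 0.999). CycB, a mitotic and meiotic cyclin, had a difference of 0.14 (SE 0.25, limma adjusted p = 0.999). With single libraries left out, osk ran from -0.11 to 0.11 and CycB from -0.03 to 0.32. The 33 proteasome genes had a median of 0.22 with 0 called, and both same-numbered values were positive for 21 of them (63.6%, against 25.2% of all genes). The 10 ecdysone-linked nuclear receptor genes had the highest median, 0.52, with 0 called. Their median was 0.86 from the replicate 1 libraries and 0.19 from the replicate 2 libraries, and it was -0.11 without WT immature replicate 1.

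**Figure D3:**
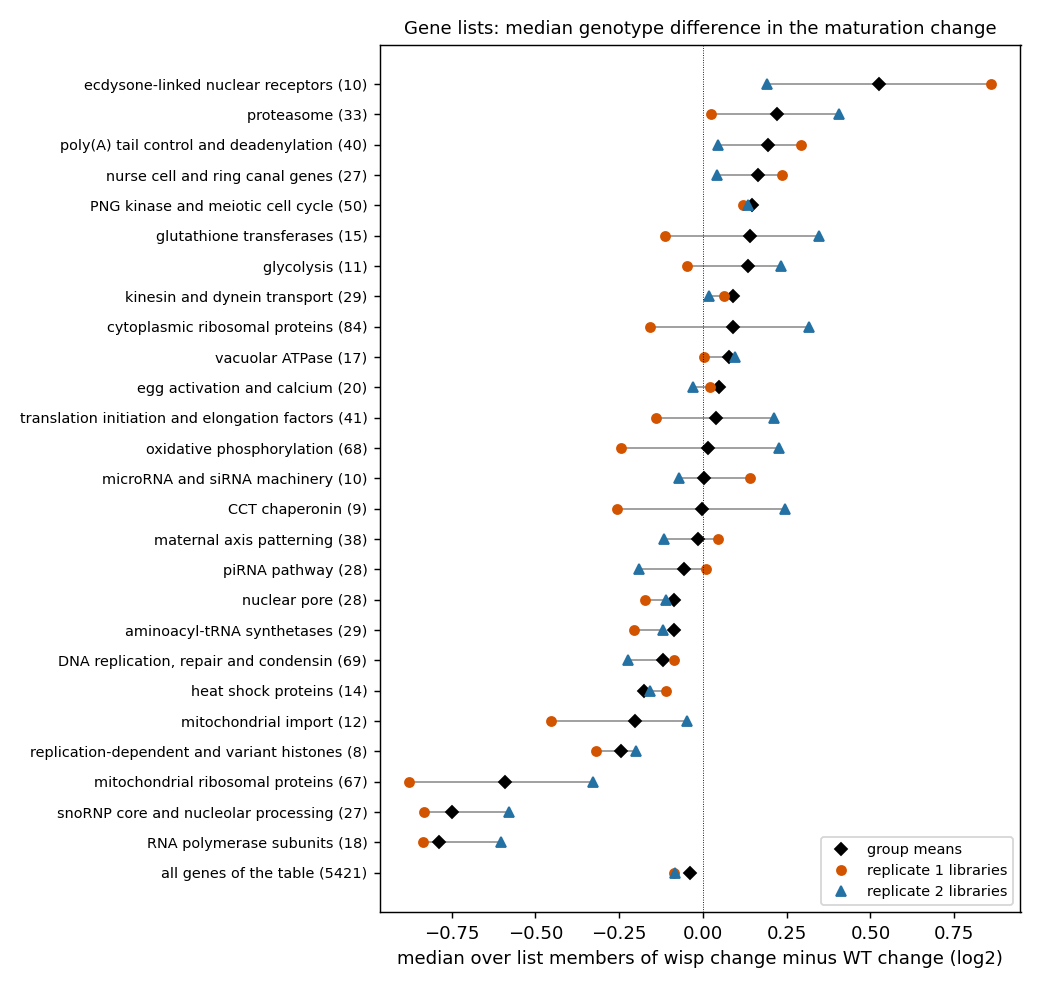
Median difference between the wisp and the WT maturation change (log2) over the members of each of 26 gene lists with at least 3 members in the table and over all genes, from group means (diamonds), replicate 1 libraries (circles) and replicate 2 libraries (triangles). RNA polymerase subunits, snoRNP and nucleolar genes and mitochondrial ribosomal proteins have medians of -0.79, -0.75 and -0.59, lower than the other lists by either replicate number.

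The medians of the snoRNP and nucleolar, RNA polymerase and mitochondrial ribosomal protein lists were negative in all 22 alternative analyses. They ranged from -0.83 to -0.58, from -0.93 to -0.42 and from -0.88 to -0.24 in that order of lists. The proteasome median was positive in all 22, between 0.02 and 0.41. Not all 22 could alter a sign. Array weights, the replicate blocks without removal of the length trend and the fit of the oocyte libraries alone leave each difference unchanged. The list medians are therefore the same there. The other pseudocounts could change the medians little, since all values are at least 100. Of the lists named above, the cytoplasmic ribosomal protein, translation factor, poly(A) tail control, meiotic cell cycle, egg activation, axis patterning, piRNA and ecdysone medians changed sign in at least 1 alternative, so their direction is not settled.

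The rule also took 3 called genes that the table gives by an annotation number. CG5220, a putative tRNA methyltransferase gene (Trm7-32 in RefSeq), had 138 and 159 in wisp mature and 531 and 511 in wisp immature oocytes, against 505 and 497 in WT mature and 477 and 491 in WT immature oocytes. The difference was -1.86 (SE 0.20, limma adjusted p = 0.0151). CG17322, a UDP-glycosyltransferase gene (Ugt36E1 in RefSeq), had 132 and 143 in wisp mature and 275 and 375 in wisp immature oocytes, against 881 and 972 in WT mature and 600 and 766 in WT immature oocytes, for a difference of -1.67 (SE 0.27, limma adjusted p = 0.0325). CG8010, which has no name in RefSeq, had 222 and 264 in wisp mature and 1421 and 1363 in wisp immature oocytes, against 695 and 683 in WT mature and 984 and 1036 in WT immature oocytes, for a difference of -1.97 (SE 0.31, limma adjusted p = 0.0323). In all 3 the wisp mature libraries were the lowest. Others of the 56, picked out after their values were seen, had varied roles. Srp14, a protein of the signal recognition particle, had a difference of -1.66, the cardiolipin synthase gene CLS -1.74, the katanin subunit gene kat80 -1.66, and the Polycomb histone methyltransferase gene E(z) -1.32. Of the 56 genes, the table gives 35 by a name and 21 by an annotation number, and RefSeq names 9 of the 21.

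The 56 genes were shorter and less abundant than the table as a whole. Their transcripts had a median length of 1243 nt, against 2091 nt for all genes. Their mean value over the 8 oocyte libraries had a median of 481, against 1014 for all genes. The wisp mature mean was under 200 for 34 of the 56 (60.7%), against 5.53% of all genes, which places many of them near the minimum of 100 for entry into the table. Both measures include the wisp mature values, whose low level is part of the call. The median of the group means was 580 for the 56 against 1075 for all genes in WT mature oocytes. In WT immature oocytes it was 558 against 962. By chromosome arm 17 lay on 3R, 12 on 3L, 11 on 2R, 10 on 2L, 6 on X and 0 on 4. The X held 10.7% of them and 18.2% of all genes. Just inside the threshold lay CG13016 (-1.28, limma adjusted p = 0.0492), and just outside it Arp5 (-1.0, limma adjusted p = 0.0521).

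With no replicate block, no gene was called higher, and the genes nearest to it are given by their values. Map205, a microtubule-associated protein that binds Polo kinase, had the highest difference at 2.46 (SE 1.14, limma adjusted p = 0.465). It had 3654 and 3717 in wisp mature and 2917 and 763 in wisp immature oocytes, against 812 and 567 in WT mature and 3518 and 655 in WT immature oocytes. The mature pairs did not overlap, while each immature pair had a high replicate 1 and a low replicate 2. The gamma-tubulin complex gene Grip71 had 2144 and 2230 in wisp mature and 2063 and 2200 in wisp immature oocytes, against 1126 and 1109 in WT mature and 1764 and 2165 in WT immature oocytes. Only the WT mature pair was low, and the difference of 0.84 (SE 0.32) had a limma adjusted p of 0.318. The clathrin heavy chain gene Chc (0.84), the Fanconi anemia gene FANCI (0.86), the ribonucleotide reductase gene RnrL (0.67) and the protein disulfide isomerase gene ERp60 (0.66) had limma adjusted p-values of 0.438, 0.276, 0.391 and 0.465. The numbered genes taken on this side were CR40963 (2.30), CG9467 (0.66) and CG17233 (0.60), with limma adjusted p-values of 0.475, 0.376 and 0.488.

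The same-numbered libraries gave 2 separate readings of the difference. Their values shared a sign for 3520 genes (64.9%), and across genes they correlated with a Pearson r of 0.567, a description over 5421 genes that are not independent replicates. The difference was -1 or lower in both numbers for 169 genes (3.12%) and 1 or higher in both for 6 genes (0.111%), and it passed 1 in opposite directions for 2 genes. Those 6, named after their values were seen, were Map205, CR40963, CG3523, CG11811, Nipped-B and Pat1, none of which was called. The 56 genes were called on the mean of these same readings, so the sign they share in both follows from the call. Their median was -1.50 from the replicate 1 and -1.46 from the replicate 2 libraries.

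**Figure D4:**
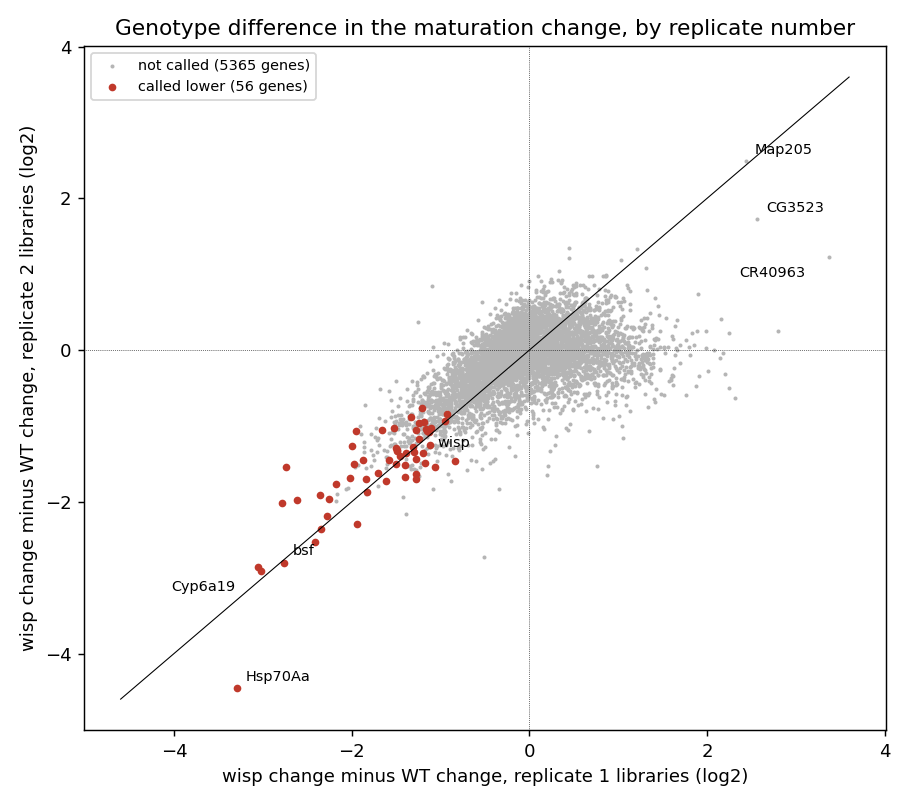
Difference between the wisp and the WT maturation change (log2) from the replicate 1 libraries (horizontal axis) and the replicate 2 libraries (vertical axis), 1 point per gene, with the diagonal of equal value. The 56 called genes (red) are negative in both readings, on which the call rests, and the other genes spread farther along the replicate 1 axis, with an SD of 0.633 against 0.471.

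The 2 readings were set against transcript length. Over 8 bins of length, the median from the replicate 1 libraries ran from -0.38 in the shortest bin (median 760 nt) to 0.72 in the longest (median 5735 nt). From the replicate 2 libraries the shortest bin had -0.03 and the longest -0.13. The counts of genes called lower from the shortest to the longest bin were 15, 21, 7, 5, 2, 3, 2 and 1. With a smooth trend on length removed, 32 genes were called lower, of which 30 were among the 56. The part of the length trend in the remaining 26 calls was not tested.

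The number of calls depended on single libraries and on scaling. Left out in turn, wisp mature replicates 1 and 2 gave 0 and 1 genes called lower, and wisp immature replicates 1 and 2 gave 1 and 9. WT mature replicates 1 and 2 gave 0 and 0, and WT immature replicates 1 and 2 gave 3 and 75. Under TMM scaling 2 genes were called lower, and with the 8 oocyte libraries alone in the fit 2 were. All 21 called genes that the naming rule picked had a negative difference in every one of these analyses. They were picked for a called negative difference, so the kept sign follows in part from the call. The fit of the 8 oocyte libraries alone leaves the difference unchanged, so it could not alter a sign. Cyp6a19 was called in 5 of the 8 analyses that left out a library, with values of -3.04 to -2.89.

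The activated egg libraries, which the oocyte contrast did not use, gave values for the same 56 genes. The wisp minus WT difference in eggs had a median of -1.29, where all genes had a median of -0.16. By limma 51 of the 56 were called lower (17.7% of all genes were) and 1 higher (7.3% of all genes were). Both same-numbered differences were negative for 54 of the 56 (96.4%), against 50.4% of all genes. The pooled spread is shared with the oocyte contrast. With the 4 egg libraries alone in the fit 38 of the 56 were called lower (7.69% of all genes were), and with each egg library left out in turn 40 to 47 were. The lowest of these, 40, came without WT egg replicate 2 (3.39% of all genes were then called lower), and without wisp egg replicate 2 the count was 44 (5.63% of all genes).

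In eggs the genotypes lay far apart for several of these genes. Cyp6a19 had 258 and 288 in wisp eggs against 5709 and 5019 in WT eggs, a difference of -4.29 (limma adjusted p = 1.15e-05). The gene bsf had 300 and 155 in wisp eggs against 3347 and 3452 in WT eggs (-3.97), and RpI1 had 391 and 274 in wisp eggs against 2665 and 2576 in WT eggs (-3.0). In these 3 the genotypes did not overlap. Hsp70Aa was the gene called higher, with 420 and 282 in wisp eggs against 104 and 117 in WT eggs (1.63, limma adjusted p = 0.0424). The 4 genes called neither way in eggs, named after their values were seen, were Acer (-0.45), CG3476 (-0.25), mRpL40 (-0.15) and CG4842 (0.07). Among the genes that missed the threshold in oocytes, Map205 had 2567 and 3908 in wisp eggs against 516 and 830 in WT eggs (2.27, limma adjusted p = 0.0714).

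**Figure D5:**
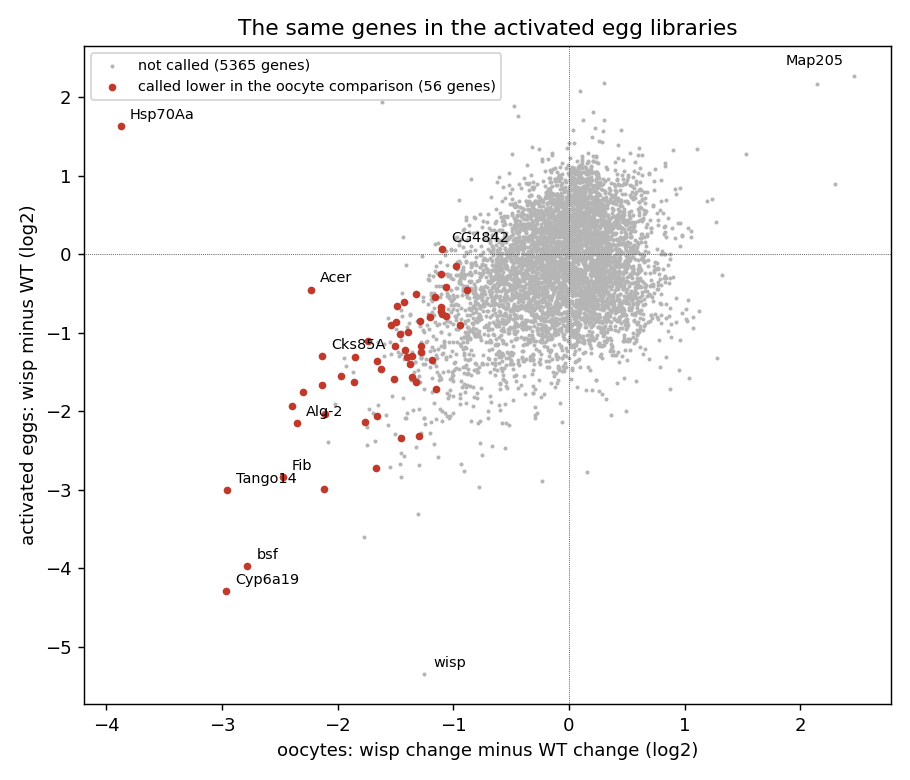
Wisp minus WT difference in activated eggs (vertical axis, log2) against the difference between the wisp and the WT maturation change in oocytes (horizontal axis, log2), 1 point per gene. Of the 56 genes called lower in oocytes (red), 54 lie below 0 in eggs, and Hsp70Aa and CG4842 lie above.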

How the data were processed

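RNA was measured by sequencing in 8 oocyte and 4 egg libraries, with genotype and stage read from the labels. Values in the deposited table are a signal per transcript record, read counts normalised by the authors and no longer whole. STAR 2.4.2a, HTSeq, RSEM 1.2.25 and the build dm6 are named, without roles, in the submitters' processing notes. How counts were normalised is not given in the sources consulted. The table used here has 0 ERCC rows. After removal of 1 identical duplicate record, 5421 records remained, of which 5391 matched a RefSeq gene.

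Values were analysed as log2(value + 1), a scale that understates changes of low genes. All contrasts came from the same linear model, fitted in R 4.3.3 by limma 3.58.1 with its variance trended on mean value, over 12 libraries in 6 groups, with 6 residual and 2.43 prior degrees of freedom and no block. Calls were made where the Benjamini-Hochberg adjusted p over all genes was under 0.05. The code was tested on simulated data. Members, the 28 lists and the naming rule were chosen with earlier results of these data known, and wrongly assigned symbols were removed from lists after the table was seen. The rule named wisp, the 10 lowest and 10 highest named genes whose same-numbered values shared the sign (called, or filled by unadjusted p), 3 numbered genes each way, genes of opposite change, and up to 3 called members, the most abundant ones and the extremes of each list. It gave 118 genes, of which 21 were called. Alternatives were other pseudocounts, a filter on a mean of 500, TMM (trimmed mean of M values) and median-of-ratios scaling, quantile normalisation, array weights, replicate blocks, removal of a length trend and leaving out libraries. No sequences are shown.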

Additional observations from a re-analysis of the deposited data

Results flagged for a closer look

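The test of the difference itself, wisp maturation change minus WT maturation change, passed the limma threshold for 21 genes picked by the naming rule. The difference was -3.87 for Hsp70Aa, -2.97 for Cyp6a19, -2.96 for Tango14, -2.78 for bsf, -2.47 for Fib, -2.40 for SmB and -2.35 for Alg-2. It was -2.30 for Adk2, -2.23 for Acer, -2.14 for Cks85A, -2.13 for NHP2, -2.12 for RpI1, -1.97 for CG8010 and -1.86 for CG5220. It was -1.76 for wcd, -1.67 for CG17322, -1.50 for mRpL20, -1.50 for mRpL47, -1.40 for eIF-2beta, -1.30 for Rga and -0.98 for mRpL40.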

How the results depend on the processing

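Against 56 genes called lower and 0 higher, pseudocounts of 0.5 and 5 gave 56 lower each. All values are at least 100, so these pseudocounts could change little. A filter on a mean value of 500 left 20 lower, TMM scaling 2, median-of-ratios scaling 2, quantile normalisation 1, a fit of the 8 oocyte libraries 2, array weights by stage 16 and removal of the length trend 32. None of these gave a gene called higher. Leaving out each library in turn gave 0 to 75 lower and 0 to 1 higher. The labels do not say that a replicate number marks a shared batch. The deviations of same-numbered libraries had a correlation between genotypes of 0.849 in immature and 0.483 in mature oocytes, and of -0.615 to -0.31 across stages. A replicate block within each stage, with 3 residual degrees of freedom, gave 508 lower, all 56 among them, and 23 higher. Of the named genes not called without it, it called 15 lower and 4 higher. The targeted gene wisp was among the 15 (limma adjusted p = 0.00321). The higher ones were Map205 (limma adjusted p = 1.3e-05), CR40963 (0.00394), tai (0.00833) and FANCI (0.0178). With the length trend removed this block gave 560 lower and 60 higher. With 1 replicate block over all stages 1 gene was called lower. The filter left fewer genes, and leaving out libraries left fewer libraries. The cause of the changed counts was not tested. All 21 named called genes kept their sign wherever they were tested, and under the filter 17 of them were. The kept sign follows in part from the call. Array weights, replicate blocks and the fit of the 8 oocyte libraries leave the difference unchanged, so they could not alter a sign. In eggs, 38 to 47 of the 56 were called lower under alternatives added after the data were seen. Depth is unknown, and genes under 100 in any library are not analysed here.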
